A study of Mus musculus with 6 samples.

Results

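The proteasome genes of proliferating mouse muscle stem cells (MuSCs) were taken as all listed genes whose symbol starts with Psma, Psmb, Psmc, Psmd, Psme, Psmf or Psmg, which gave 48 of 14546 genes, spread over 16 chromosomes. PRO-seq, which maps RNA polymerases that are engaged in transcription, had been run on 3 libraries of Ctrl MuSCs (Pax7CreERT/Kmt5b+/+) and 3 libraries of Kmt5b sKO MuSCs (Pax7CreERT/Kmt5b flox/flox), and the question was how transcription changes without KMT5B, an enzyme that methylates lysine 20 of histone H4. All mice carried the tamoxifen-inducible Cre from the Pax7 locus and were on a C57BL/6 background, tamoxifen was injected at 8 to 12 weeks of age, and the cells were enriched from limb and trunk muscle by a Percoll gradient and magnetic sorting and then cultured. Deletion is thus limited to cells that expressed Pax7 at the time of injection, and the cells were measured after culture. The methods call the 3 libraries of each group biological replicates. The tests measure the spread between these libraries.

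The proteasome is the protease that breaks down most short-lived and damaged proteins after they have been tagged with ubiquitin. Its 20S core is a barrel of alpha rings, which form the gate, around beta rings, of which Psmb5, Psmb6 and Psmb7 encode the catalytic subunits. The 19S cap contains a ring of ATPases, encoded by the Psmc genes, that unfolds and feeds in substrates, and non-ATPase subunits, encoded by most Psmd genes, that bind ubiquitin chains and remove them. Psmb8, Psmb9 and Psmb10 encode interferon-inducible catalytic subunits of the immunoproteasome, Psmb11 a thymic one, Psme1 to Psme4 encode other activators, Psmf1 an inhibitor, and the Psmg genes with Psmd5, Psmd9 and Psmd10 assembly chaperones. Muscle wasting and the turnover of cell cycle proteins both run through this protease, and the transcription factor NFE2L1 is known to raise many of its genes together when the protease is inhibited.

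For each gene 2 values were available per library, the reads in the first 400 nt of the listed isoform (TSS region, in RPM, reads scaled to the total counted in TSS regions and not to the whole library) and the reads in the remainder of the gene per length (gene body, in TPM). As TSS regions are all equally long and TPM is corrected for length, levels of different genes can be compared within each region. The pausing index is the ratio of both values. The libraries held 926904 to 3246052 reads in the TSS regions and 7425421 to 16249142 reads in the bodies of the listed genes, and Kmt5b sKO 2 was the shallowest in both. Among the proteasome genes the median was 58 to 230.5 TSS reads and 217 to 558.5 body reads per library. Kmt5b itself had 93.7, 87.3 and 102 RPM in Ctrl against 120, 107 and 113 RPM in Kmt5b sKO in its TSS region, and 30.6 to 38.5 TPM against 35.0 to 42.6 TPM in its body. These values cover the whole gene and do not resolve a deleted stretch, and therefore do not check the genotype. Of the myogenic markers, Myod1 stood at 855 to 1328 TPM and Pax7 at 25.5 to 53.7 TPM over the gene body, whereas the sums of the listed markers were 2.5 to 5.05 TPM for endothelial and 6.01 to 18.0 TPM for fibro-adipogenic cells, the latter mostly Col1a1 and Ly6a. Of the listed immune markers, Itgam had 0.31 to 0.65 TPM, Cd3e 4.31 to 21.3 TPM, Cd14 6.26 to 43.8 TPM and Cd68 214 to 402 TPM. The summed body level of 7 genes of mature muscle fibres was 448 to 983 TPM in Ctrl and 1179 to 1623 TPM in Kmt5b sKO. Of these, 0 of the 4 that were tested were called, against 1.66% of all tested genes at the TSS and 2.99% over the gene body. In bulk libraries a change in the number of cells of a type and a change of transcription per cell cannot be told apart.

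Promoters of 8 members are shown because the results below turn on them: Psma5 and Psmd9 had the largest positive differences between genotypes in the TSS region, Psmb5 in the gene body among genes whose groups did not overlap, Psmb6 is another catalytic subunit with the antioxidant response element core near its start, as in Psmb5 and Psmd9, Psmc2 had the lowest pausing index, Psmb8 and Psmb9 are the inducible catalytic subunits, and Psme2 had the largest difference of all in the gene body. Each runs from 250 bases before to 50 bases after the RefSeq start on GRCm38.p6, 5′ to 3′ on the strand of the gene, and was taken from RefSeq, where 41 of the 48 genes were found. Capitals mark matches on either strand to TGACNNNGC (the core of the antioxidant response element, which NFE2L1 and NFE2L2 bind), CCAAT (bound by NF-Y), CGCATGCG (bound by nuclear respiratory factor 1), CCGGAAG (bound by ETS factors) and TATAAA. The intervals are chr3:108256676-108256975 (plus strand) for Psma5, chr14:54617946-54618245 (minus) for Psmb5, chr11:70525107-70525406 (plus) for Psmb6, chr5:123227940-123228239 (plus) for Psmd9, chr5:21785025-21785324 (plus) for Psmc2, chr17:34197945-34198244 (plus) for Psmb8, chr17:34187281-34187580 (minus) for Psmb9 and chr14:55591052-55591351 (minus) for Psme2.
Psma5: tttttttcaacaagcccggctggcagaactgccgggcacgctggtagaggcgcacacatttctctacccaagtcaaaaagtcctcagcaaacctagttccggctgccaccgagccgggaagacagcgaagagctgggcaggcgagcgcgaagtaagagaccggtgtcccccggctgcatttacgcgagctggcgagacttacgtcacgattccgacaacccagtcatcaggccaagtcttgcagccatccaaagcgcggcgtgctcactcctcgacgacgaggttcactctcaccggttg
Psmb5: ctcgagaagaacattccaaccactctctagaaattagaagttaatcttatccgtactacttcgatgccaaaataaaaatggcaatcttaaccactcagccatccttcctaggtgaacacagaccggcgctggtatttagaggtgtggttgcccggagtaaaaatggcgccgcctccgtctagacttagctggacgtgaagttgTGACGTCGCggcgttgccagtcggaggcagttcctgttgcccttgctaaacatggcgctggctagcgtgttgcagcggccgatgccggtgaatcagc
Psmb6: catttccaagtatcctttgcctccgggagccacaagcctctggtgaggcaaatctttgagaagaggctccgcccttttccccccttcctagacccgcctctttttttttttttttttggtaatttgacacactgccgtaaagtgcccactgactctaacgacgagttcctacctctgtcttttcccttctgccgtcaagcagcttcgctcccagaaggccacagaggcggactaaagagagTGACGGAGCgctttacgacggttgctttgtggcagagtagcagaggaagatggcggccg
Psmd9: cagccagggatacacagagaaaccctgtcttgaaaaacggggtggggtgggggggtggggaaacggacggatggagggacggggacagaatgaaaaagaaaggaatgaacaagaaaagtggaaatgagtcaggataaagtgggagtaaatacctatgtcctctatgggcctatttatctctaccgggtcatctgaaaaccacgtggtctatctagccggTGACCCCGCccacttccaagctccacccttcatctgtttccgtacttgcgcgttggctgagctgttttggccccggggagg
Psmc2: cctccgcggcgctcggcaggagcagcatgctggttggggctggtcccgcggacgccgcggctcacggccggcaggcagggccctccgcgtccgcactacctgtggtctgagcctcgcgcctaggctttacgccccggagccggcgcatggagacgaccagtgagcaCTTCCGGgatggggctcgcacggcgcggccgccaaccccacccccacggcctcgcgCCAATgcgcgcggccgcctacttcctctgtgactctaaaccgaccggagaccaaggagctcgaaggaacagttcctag
Psmb8: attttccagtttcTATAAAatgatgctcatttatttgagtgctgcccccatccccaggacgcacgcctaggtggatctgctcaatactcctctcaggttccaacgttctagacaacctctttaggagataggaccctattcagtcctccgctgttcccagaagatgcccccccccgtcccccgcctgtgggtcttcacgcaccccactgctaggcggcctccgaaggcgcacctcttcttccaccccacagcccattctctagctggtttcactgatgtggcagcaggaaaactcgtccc
Psmb9: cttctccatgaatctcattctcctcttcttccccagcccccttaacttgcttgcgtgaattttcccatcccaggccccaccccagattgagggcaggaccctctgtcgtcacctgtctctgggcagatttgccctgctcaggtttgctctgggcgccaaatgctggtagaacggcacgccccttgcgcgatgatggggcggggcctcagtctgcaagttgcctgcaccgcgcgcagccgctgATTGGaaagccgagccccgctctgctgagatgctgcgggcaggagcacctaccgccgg
Psme2: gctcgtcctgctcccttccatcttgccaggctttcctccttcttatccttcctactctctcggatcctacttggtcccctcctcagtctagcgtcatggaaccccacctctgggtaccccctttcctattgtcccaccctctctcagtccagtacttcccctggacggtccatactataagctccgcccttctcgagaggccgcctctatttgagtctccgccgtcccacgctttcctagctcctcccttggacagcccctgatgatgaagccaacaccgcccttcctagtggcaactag

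The antioxidant element core was found in 6 of the 41 promoters (14.6%), those of Psmb5, Psmb6, Psmc6, Psmd9, Psmd12 and Psme4, against 12.4% of 32851 promoters of all genes and 14.3% of 12264 promoters of the tested genes. Counted from the RefSeq start, it begins at -47 in Psmb5, -31 in Psmd9, -9 in Psmb6 and -7 in Psme4, while it lies at -227 in Psmc6 and -247 in Psmd12. CCAAT was found in 34.1% of members and 37.4% of the promoters of tested genes, the nuclear respiratory factor 1 core in 4.88% and 3.82%, and TATAAA in 9.76% and 6.96%. The ETS core was found in 15 of 41 members (36.6%) and in 17.2% of the promoters of tested genes. The promoters of Psma5 and Psme2 shown above hold none of the 5 motifs, and those of Psmc2, Psmb8 and Psmb9 hold CCAAT and the ETS core, TATAAA, and CCAAT, respectively. CpG dinucleotides numbered 10 to 41 in the 300 bases of the 25 core subunit promoters found (median 20, the same as over the tested genes), but 3 in Psmb10 and 4 in Psmb11. For 38 of the 41 genes the nearest RefSeq start lay within 100 nt of the listed one. The exceptions were Psmb8 and Psmb9, where it lay 405 and 434 nt downstream and so beyond the 400 nt counted as TSS region, and Psme1, where it lay 134 nt downstream.

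Gene bodies of the 31 core subunits were transcribed at similar densities in Ctrl MuSCs. The Ctrl means ran from 21.8 TPM in Psmb4 to 67.5 TPM in Psmc3 around a median of 36.0 TPM. Of these genes, 28 of 31 lay within 1.5-fold of that median. This window holds 22.7% of the 12451 tested genes, but it is centred on the core and not on the median of the tested genes. The core genes outside it were Psmb4 (21.8 ± 1.4 TPM, SD, n = 3), which encodes a beta-ring subunit, and the ATPases Psmc4 (23.1 ± 5.5 TPM) and Psmc3 (67.5 ± 16 TPM). The SD of the log2 Ctrl means was 0.38 across the core genes and 1.84 across all tested genes. This held over body lengths from 1863 nt in Psmb6 to 88282 nt in Psmd14, which had 27.2 ± 8.8 and 26.8 ± 1.3 TPM. All 31 core genes lay above the median of the tested genes (15.9 TPM), at percentiles 63.3 to 92.7. By role, the Ctrl median was 38.4 TPM for the 7 alpha subunits, 33.5 TPM for the 4 structural beta subunits, 31.7 TPM for the 3 catalytic subunits, 42.0 TPM for the 6 ATPases and 36.0 TPM for the 11 non-ATPase subunits of the cap, and the ranges of these groups overlapped.

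Polymerase density at the start differed much more between the same genes. TSS values of the core ran from 5.70 ± 0.97 RPM in Psmc2, an ATPase, to 153 ± 4.5 RPM in Psmd3, a non-ATPase subunit (SD, n = 3 Ctrl libraries), a range of 26.9-fold against 3.10-fold in the gene body, with an SD of the log2 means of 1.17. Across all tested genes the SD of the log2 Ctrl means in this region was 2.06. Only 14 of 31 core genes lay within 1.5-fold of the core median of 61.7 RPM. Beside Psmd3, the alpha subunit Psma3 (149 ± 34 RPM), the ATPase Psmc1 (138 ± 11 RPM) and the deubiquitinase Psmd14 (126 ± 29 RPM) were at the top. Psmc2, Psmc4, Psmc5, Psmd13, Psmb6 and Psmb7 lay below the median of the tested genes (22.3 RPM), although their bodies lay above it.

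**Figure D1:**
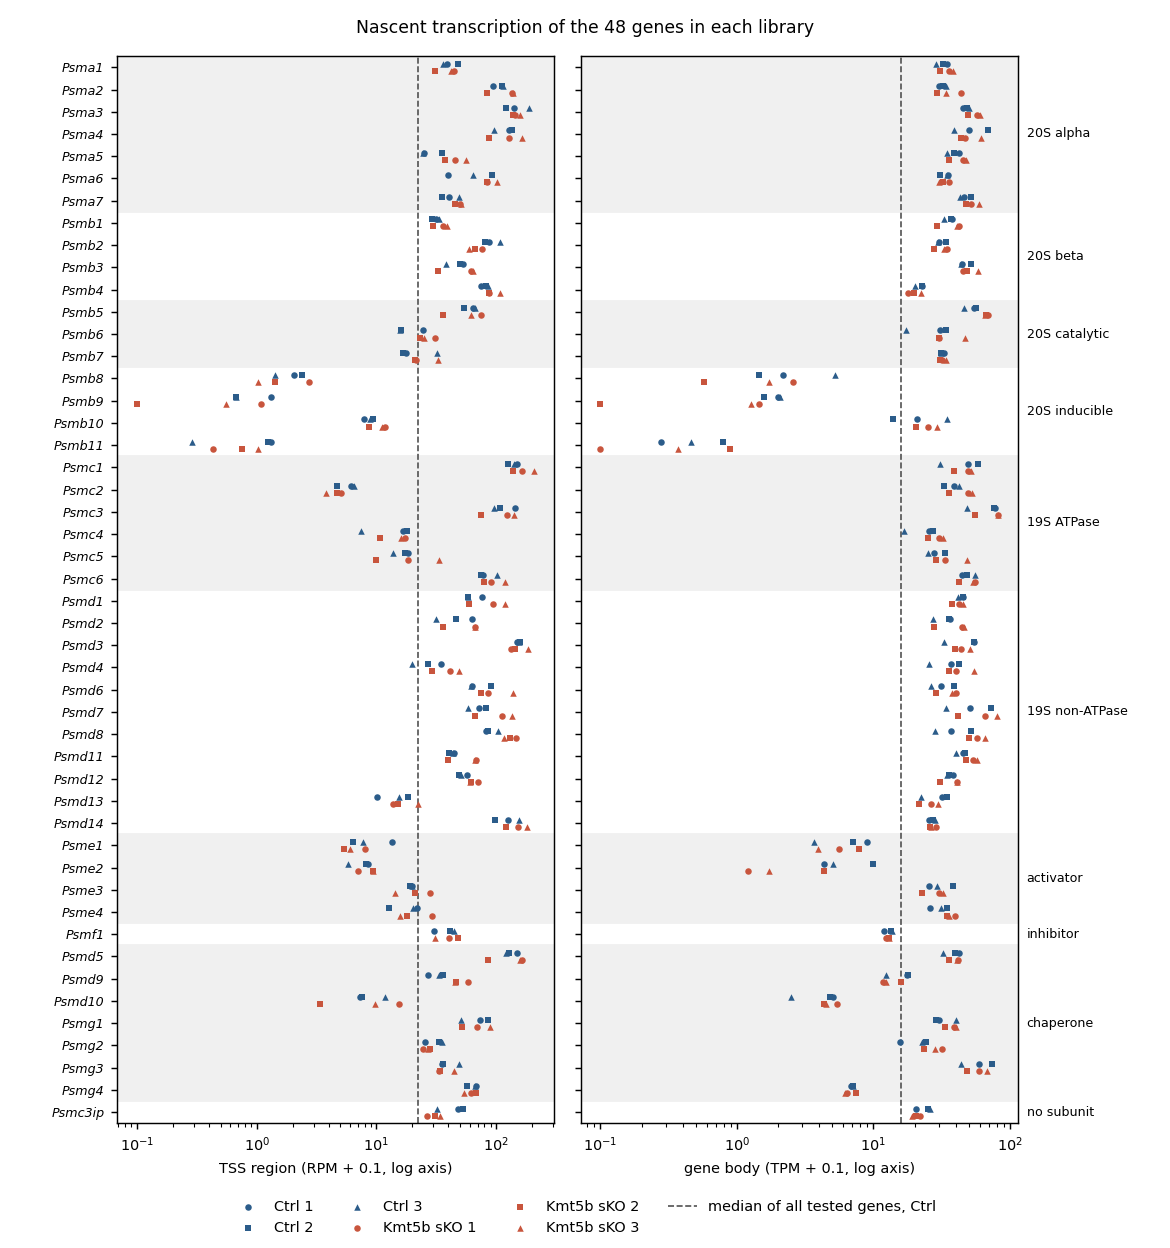
TSS values (RPM, left) and gene body values (TPM, right) of the 48 genes in each library, with 0.1 added and on log axes. Colours give the genotype, symbols the library number, and dashed lines the Ctrl median of all tested genes. Core 20S and 19S genes form a narrow column in the gene body and a wide one in the TSS region, and Psmb8, Psmb9, Psmb11, Psme1, Psme2, Psmd10, Psmg4 and Psmf1 lie left of the line in the body, with Psmd9 on it.

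Accordingly, the pausing index of the core genes in Ctrl ran from 0.15 in Psmc2 to 4.71 in Psmd14 around a median of 1.42, against a median of 1.55 over the 11698 genes with an index. In Psmc2 the index was 0.155, 0.141 and 0.153 in Ctrl, lower than in all but 1.83% of tested genes. The 3 Ctrl libraries were close to each other, and the low value rested on 25, 8 and 34 TSS reads and 1033, 673 and 1091 body reads in them. RefSeq lists a second start of Psmc2 1464 nt downstream of the listed one, inside the region counted as gene body. Dnajc2, a ribosome-associated chaperone gene that starts 32 nt away on the opposite strand, had 31.1 RPM in its own TSS region in Ctrl. In Psmd14 the Ctrl index was 4.98, 3.57 and 5.57, above 91.2% of tested genes. The highest index of all members was that of the assembly chaperone Psmg4, at 10.2, 8.13 and 9.50 in Ctrl against 9.79, 9.20 and 8.91 in Kmt5b sKO, with 63.8 ± 6.0 RPM at the start and 6.90 ± 0.17 TPM in the body. Psmc2 was the lowest of the core genes and Psmg4 the highest of all members in each of the 6 libraries.

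**Figure D2:**
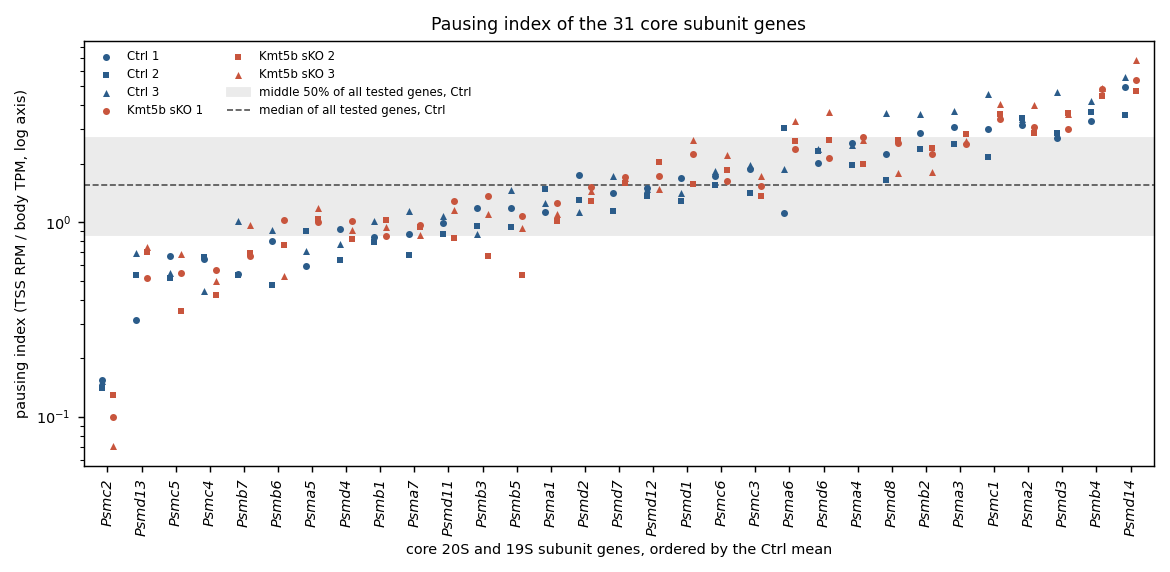
Pausing index (TSS RPM over gene body TPM, log axis) of the 31 core subunit genes in every library, ordered by the Ctrl mean. The dashed line and grey band give the median and the middle 50% of all tested genes in Ctrl. Psmc2 stands apart at 0.0705 to 0.155, and the other core genes run from below 1 to above 4.

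Of the 48 genes, 10 had the start of a protein-coding gene on the opposite strand within 1000 nt, in 6 of them within 200 nt (Psma2 with Mrpl32, Psma7 with Ss18l1, Psmc2 with Dnajc2, Psmc5 with Ftsj3, Psmd10 with Atg4a and Psmd13 with Sirt3). The TSS levels of such neighbours differed in either direction in Ctrl. Psma2, an alpha subunit, had 106 RPM and Mrpl32, a mitochondrial ribosomal protein gene, 22.6 RPM, Psmc5 and Ftsj3 had 16.4 and 16.3 RPM, and Psmd13 had 14.6 RPM against 20.8 RPM for Sirt3. None of the partners tested passed the threshold between genotypes, which 1.66% of all tested genes passed at the TSS and 2.99% over the gene body.

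Of the immunoproteasome genes, Psmb8 and Psmb9 lay below all core genes in the gene body and Psmb10 lay within their range. Gene body values of Psmb8 were 2.09, 1.35 and 5.15 TPM in Ctrl against 2.48, 0.47 and 1.61 TPM in Kmt5b sKO. Those of Psmb9 were 1.91, 1.47 and 1.95 TPM in Ctrl against 1.34, 0 and 1.17 TPM in Kmt5b sKO, from 9 to 15 and from 0 to 8 reads. The Psmb8 groups overlapped, with the highest value in Ctrl 3, and those of Psmb9 did not. Psmb10 stood higher, at 20.8, 13.7 and 34.6 TPM in Ctrl against 25.0, 20.5 and 29.1 TPM in Kmt5b sKO, and its groups overlapped as well. Of the summed body density of each catalytic subunit and its inducible counterpart, the inducible gene made up 2.33% to 10.1% for Psmb8 with Psmb5, 4.15% to 10.1% for Psmb9 with Psmb6 and 30.7% to 52.5% for Psmb10 with Psmb7 over the Ctrl libraries, in each case with the highest share in Ctrl 3. In Ctrl 3, Psmb6 was at 17.3 TPM, against 30.5 and 34 TPM in Ctrl 1 and Ctrl 2, while Psmb9 was nearly the same in Ctrl 1 and Ctrl 3. Over Kmt5b sKO the shares were 0.703% to 3.46%, 0% to 4.28% and 40.3% to 46.4%. The TSS regions of Psmb8 and Psmb9 end before their RefSeq starts (above), so that TSS values of 0 to 2.62 RPM do not describe those starts. Psmb11, the thymic subunit, did not exceed 0.79 TPM in any library and was not tested.

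**Figure D3:**
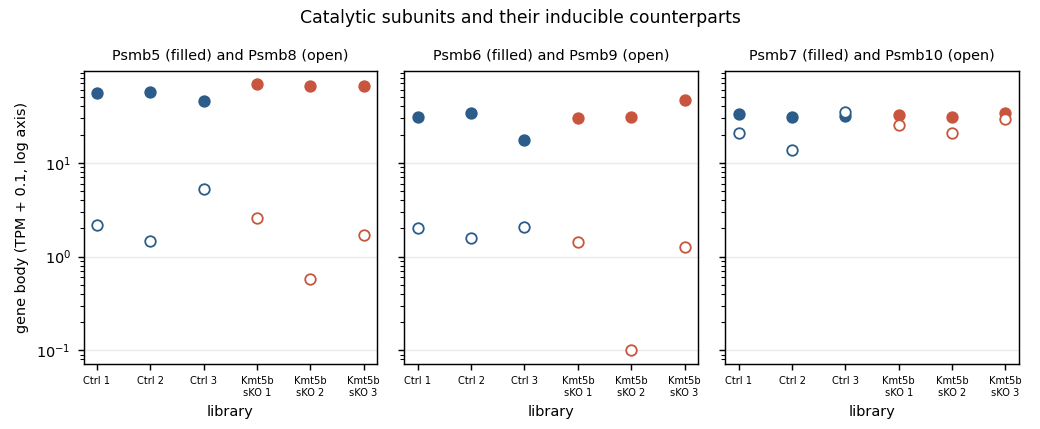
Gene body values (TPM + 0.1, log axis) of each catalytic subunit (filled) and its inducible counterpart (open) in the 6 libraries, Ctrl in blue and Kmt5b sKO in red. Psmb8 and Psmb9 lie far below Psmb5 and Psmb6 in every library, Psmb9 being at 0 in Kmt5b sKO 2, whereas Psmb10 lies close to Psmb7 and above it in Ctrl 3.

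The activator genes fell into 2 pairs. Psme1 and Psme2, which encode the interferon-inducible PA28 alpha and beta subunits, had 6.47 ± 2.7 and 6.30 ± 3.0 TPM in Ctrl gene bodies, whereas Psme3 (PA28 gamma) and Psme4 (PA200) had 30.9 ± 6.7 and 30.4 ± 4.5 TPM, within the range of the core. The inhibitor Psmf1 had 12.9 ± 0.95 TPM. Among assembly chaperones, gene bodies ran from 4.0 ± 1.4 TPM in the X-linked Psmd10 to 59.1 ± 15 TPM in Psmg3. Of 12 genes of MHC class I presentation, the pathway that uses peptides of the immunoproteasome, 11 were tested and 0 were called in either region. Over all tested genes, 1.66% were called at the TSS and 2.99% over the gene body. Tap1, the peptide transporter gene whose start lies 211 nt inside the listed Psmb9 gene on the opposite strand, had 3.98, 4.26 and 1.89 TPM in Ctrl against 7.37, 4.45 and 5.65 TPM in Kmt5b sKO (limma, adjusted p = 0.306), and its groups did not overlap. The summed body level of the 4 listed immune markers was 225 to 467 TPM in Ctrl, highest in Ctrl 3 as for Psmb8 and Psmb10, and 346 to 359 TPM in Kmt5b sKO, with Cd14 at 43.8 TPM in Ctrl 3 and 6.26 to 25.4 TPM elsewhere. Cd68 made up most of this sum, at 214 to 402 TPM in Ctrl and 319 to 326 TPM in Kmt5b sKO. In the TSS region, however, Cd68 was lowest in Ctrl 3, with 129, 178 and 69.7 RPM in Ctrl against 120 to 175 RPM in Kmt5b sKO. Over the body, Cd3e was also highest in Ctrl 3, whereas Itgam was lowest there (0.31 TPM). Cd3e and Itgam had 0 RPM in the TSS region of every library. Ptprc, Adgre1 and Lyz2 were not among the listed genes. The part of such cells in these levels was not tested.

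None of the proteasome genes differed between genotypes at an adjusted p under 0.1 (limma, adjusted over all tested genes). Of 46 tested members, 0 were called in the TSS region, where 1.66% of all tested genes were called (0.932% higher and 0.731% lower in Kmt5b sKO), and 0 over the gene body, where 2.99% were called (1.61% higher and 1.38% lower). For the pausing index 0 of 45 members were called, as were 0% of all genes with an index. At an unadjusted p under 0.05 limma gave 3 members in the TSS region (11% of all genes), 3 in the gene body (15.9%) and 3 for the pausing index (3.86%). On recovered reads, edgeR and DESeq2 also called 0 members in both regions, with 4 members each at an unadjusted p under 0.05 at the TSS and 3 and 2 over the gene body. The groups did not overlap for 6 of 46 members at the TSS (15.6% of all genes), 5 with Kmt5b sKO above (10.2%) and 1 below (5.33%). In the gene body this was so for 3 of 46 (21.4%), 2 above (12%) and 1 below (9.34%), and for the pausing index for 6 of 45 (9.02%), 4 above (5.93%) and 2 below (3.09%). The members' median log2 fold change (Kmt5b sKO over Ctrl) was 0.15 at the TSS against 0.08 over all tested genes, 0.05 against 0.02 over the gene body, and 0.07 against 0.05 for the pausing index. With other scalings the TSS value was smaller, at 0.089 with edgeR (all genes 0.01), 0.081 with DESeq2 (-0.0011) and 0.087 with libraries centred on their median (0.017), and the pausing index value was 0.016 with centred libraries (-0.00013). It was above 0 for 32 of 46 members at the TSS (58.2% of all genes), or 29 with edgeR or DESeq2 and 28 with centred libraries, and for 31 of 46 over the gene body (53.8%), or 26 of 46 with the scaling of edgeR or DESeq2. For the pausing index it was above 0 for 28 of 45 (57.3%), or 24 with centred libraries. By role, the gene body value was above 0 for 6 of 6 ATPases (median 0.19), 8 of 11 non-ATPase subunits (0.14), 5 of 7 alpha (0.13), 3 of 4 structural beta (0.03) and 3 of 3 catalytic subunits (0.36), and for 4 of 6 assembly chaperones (0.03), 1 of 4 activators (-0.13) and 1 of 3 inducible subunits (-0.72). At the TSS it was above 0 for 4 of 6 ATPases (median 0.15), 10 of 11 non-ATPase subunits (0.40), 6 of 7 alpha (0.13), 3 of 4 structural beta (0.14) and 2 of 3 catalytic subunits (0.21), and for 2 of 6 assembly chaperones (-0.04), 3 of 4 activators (0.12) and 1 of 3 inducible subunits (-0.21). Of the 46 genes, 23 lay above 0 and 6 below 0 in both regions, and 17 had opposite signs.

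Both values are scaled within each library, so that a shift shared by all genes would not be seen. The intervals thus bound how large a difference relative to the other genes could have been missed. In the gene body the 95% interval lay within a 2-fold change in either direction for 40 of 46 members (76.1% of all genes) and within a 1.5-fold change for 23 of 46 (39.4%). At the TSS it lay within a 2-fold change for 34 of 46 members (55%) and within a 1.5-fold change for 8 (8.42%), and for the pausing index this held for 30 of 45 (55.9%) and 2 of 45 members (3.09%). For the core, 28 of 31 body intervals lay within a 2-fold change, the exceptions being Psmb6, Psmd7 and Psmd8, and the largest core difference in the body was 1.49-fold. Psmb7, a catalytic subunit with a long gene of 1109 to 2670 body reads per library, had 32.8, 30.9 and 31.3 TPM in Ctrl against 31.9, 30.4 and 33.7 TPM in Kmt5b sKO. Its groups were interleaved and its interval ran from -0.25 to 0.28 on the log2 scale.

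**Figure D4:**
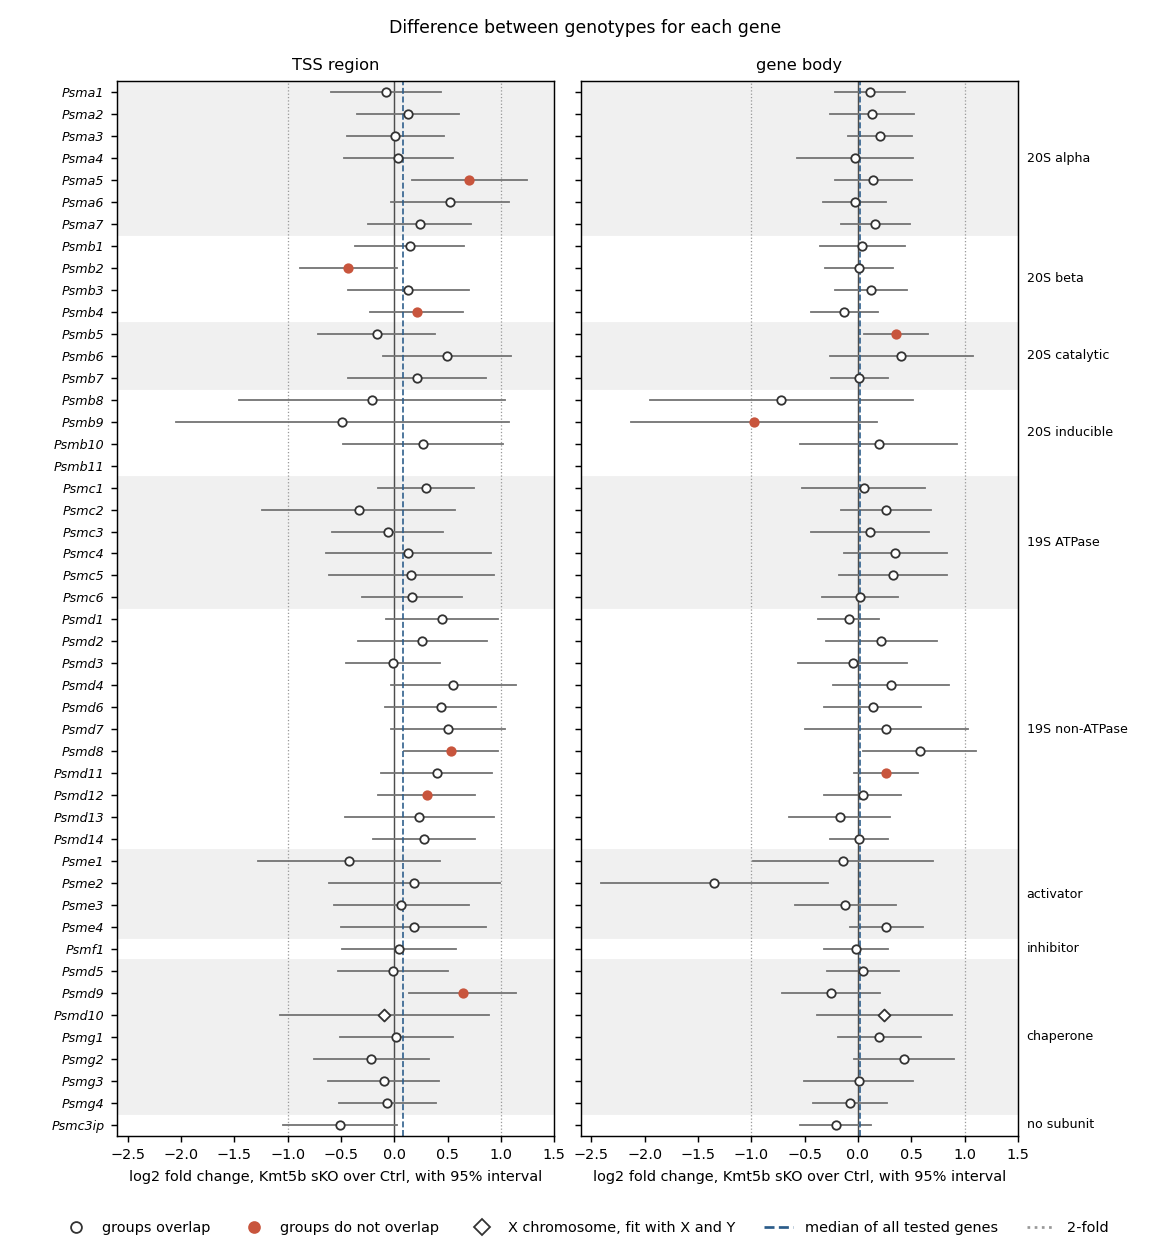
Log2 fold change of Kmt5b sKO over Ctrl with its 95% interval (limma) for each gene in the TSS region and the gene body. Filled points mark genes whose groups did not overlap, dashed lines the median of all tested genes, and dotted lines a 2-fold change. More points lie right of 0 than left of it, the gene body intervals of Psmb8, Psmb9 and Psme2 are the widest, and Psmb11 was not tested.

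Among the catalytic subunits, Psmb5, which carries the chymotrypsin-like activity, had 54.7, 56.6 and 45.9 TPM in Ctrl against 69.1, 66.3 and 65.5 TPM in Kmt5b sKO in its gene body. All Kmt5b sKO libraries lay above all Ctrl libraries, but the log2 fold change of 0.36 ± 0.13 (SE) had an adjusted p of 0.236 in limma. In the TSS region, Psmb5 had 64.4, 53.4 and 67.2 RPM in Ctrl against 74.7, 35.7 and 61.2 RPM in Kmt5b sKO, with overlapping groups and a log2 fold change of -0.17 ± 0.26 (adjusted p = 0.891, limma). The caspase-like subunit Psmb6 had 24.4, 16.1 and 15.7 RPM against 30.8, 23.1 and 24.8 RPM in the TSS region and 30.5, 34 and 17.3 TPM against 29.9, 30.3 and 46.7 TPM in the body. Its groups overlapped in both regions, with log2 fold changes of 0.49 ± 0.29 and 0.41 ± 0.29 (limma, adjusted p = 0.595 and 0.571). The trypsin-like subunit Psmb7 had 17.7, 16.7 and 31.8 RPM in Ctrl against 21.3, 21.1 and 32.7 RPM in Kmt5b sKO in the TSS region (log2 fold change 0.21 ± 0.31, limma, adjusted p = 0.881).

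For the inducible subunits, the log2 fold change in the gene body was -0.72 ± 0.53 in Psmb8, -0.97 ± 0.49 in Psmb9 and 0.19 ± 0.32 in Psmb10 (limma, adjusted p = 0.592, 0.404 and 0.834). Their intervals ran from -1.95 to 0.52, from -2.12 to 0.18 and from -0.55 to 0.93, so that a 2-fold decrease of Psmb8 or Psmb9 lay within them and a 2-fold increase outside. In the TSS region they were -0.21 ± 0.59, -0.49 ± 0.75 and 0.27 ± 0.36 (limma, adjusted p = 0.947, 0.887 and 0.864). Psme2, the partner of Psme1 in the PA28 ring, had 4.21, 9.74 and 4.96 TPM in Ctrl against 1.11, 4.23 and 1.61 TPM in Kmt5b sKO. This was the largest difference of any member in the gene body, with a log2 fold change of -1.34 ± 0.45 (limma, adjusted p = 0.215), but the groups overlapped, as Kmt5b sKO 2 was above Ctrl 1, and the values came from 4 to 36 reads. The TSS region of Psme2 had 8.47, 8.04 and 5.68 RPM in Ctrl against 6.88, 9.24 and 9.20 RPM in Kmt5b sKO. The pausing index was therefore 2.01, 0.825 and 1.15 in Ctrl against 6.20, 2.2 and 5.71 in Kmt5b sKO, without overlap (log2 fold change 1.78 ± 0.46, limma, adjusted p of 1). Psme1 had 8.89, 6.98 and 3.54 TPM against 5.53, 7.72 and 3.79 TPM, and its groups overlapped.

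In the TSS region the largest positive difference was that of the alpha subunit Psma5, with 24.9, 35.0 and 24.6 RPM in Ctrl against 45.6, 37.0 and 56.1 RPM in Kmt5b sKO (log2 fold change 0.70 ± 0.26, limma, adjusted p = 0.256). The groups were separated by the gap between Ctrl 2 and Kmt5b sKO 2. Its pausing index was 0.595, 0.904 and 0.712 in Ctrl against 1, 1.04 and 1.19 in Kmt5b sKO, without overlap (0.56 ± 0.27, limma, adjusted p of 1). Psmd9, an assembly chaperone of the ATPase ring, followed with 26.9, 35.6 and 33.0 RPM against 58.0, 46.2 and 45.5 RPM (0.64 ± 0.24, limma, adjusted p = 0.271). Its gene body had 17.6, 17.8 and 12.2 TPM in Ctrl against 11.7, 15.7 and 12.2 TPM in Kmt5b sKO, with overlap, and its pausing index of 1.52, 2.00 and 2.70 in Ctrl against 4.94, 2.95 and 3.74 in Kmt5b sKO did not overlap (0.91 ± 0.30, limma, adjusted p of 1). Psmd8, a structural cap subunit, had a higher Kmt5b sKO mean in both regions, with 82.8, 85.6 and 103 RPM against 146, 131 and 116 RPM at the start (0.53 ± 0.21, limma, adjusted p = 0.313). In its body, 37.0, 52.0 and 28.3 TPM in Ctrl stood against 56.9, 49.7 and 65.0 TPM (0.58 ± 0.23, limma, adjusted p = 0.282), the largest positive difference in that region, with Kmt5b sKO 2 just below Ctrl 2. Psmd11, a scaffold subunit of the lid, had 44.9, 46.5 and 40.2 TPM in Ctrl against 53.4, 47.6 and 57.3 TPM in Kmt5b sKO bodies without overlap (0.26 ± 0.13, limma, adjusted p = 0.391).

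Psmb2, a structural beta subunit, was the only tested member whose Kmt5b sKO libraries were all below Ctrl in the TSS region. It had 86.4, 80.4 and 107 RPM in Ctrl against 76.7, 66.7 and 58.9 RPM in Kmt5b sKO (log2 fold change -0.43 ± 0.22, limma, adjusted p = 0.494), while its body had 30.1, 34 and 29.6 TPM against 34.2, 27.7 and 32.6 TPM, with overlap. For the pausing index, the assembly chaperone Psmg2 had 1.61, 1.39 and 1.54 in Ctrl against 0.769, 1.19 and 0.960 in Kmt5b sKO, without overlap (-0.66 ± 0.26, limma, adjusted p of 1). That of Psmc2 was 0.0996, 0.129 and 0.0705 in Kmt5b sKO, below all Ctrl values (-0.63 ± 0.45, limma, adjusted p of 1). Psmd10, the chaperone on chromosome X that was fitted with X and Y included, had 4.93, 4.67 and 2.39 TPM in Ctrl against 5.35, 4.25 and 4.38 TPM in Kmt5b sKO bodies (0.25 ± 0.27, limma, adjusted p = 0.737). Psmc3ip shares the Psmc name but encodes a meiotic recombination cofactor and no subunit. It had a log2 fold change of -0.51 ± 0.26 in the TSS region and -0.21 ± 0.14 in the body (limma, adjusted p = 0.494 and 0.554).

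The core genes moved together from library to library, also within genotypes. In the gene body, 17 of the 31 core genes had their highest value in Kmt5b sKO 3, where 19.5% of all tested genes had theirs, and 18 had their lowest value in Ctrl 3, where 33.3% of all genes had theirs. Kmt5b sKO 2 was below the mean of the 6 libraries for 27 of 31 core genes in the body and Kmt5b sKO 3 above it for 29 of 31. On the log2 scale, the median core deviation from that mean was -0.02, 0.06 and -0.22 in Ctrl against 0.13, -0.17 and 0.19 in Kmt5b sKO, and over all tested genes it was 0.01, 0.06, -0.10, 0.04, 0.00041 and 0.01. In the TSS region 19 of 31 core genes were highest in Kmt5b sKO 3 (19.2% of all genes). The median log2 fold change over the tested members was 0.29 at the TSS and 0.18 in the body without Kmt5b sKO 2, 0.043 and 0.02 without Kmt5b sKO 3, and 0.10 and 0.01 without Kmt5b sKO 1. The body value was 0.10 without Ctrl 1, 0.12 without Ctrl 2 and 0.0065 without Ctrl 3. The summed fibre genes were lowest in Ctrl 3 (448 TPM) and highest in Kmt5b sKO 3 (1623 TPM), as were most core genes, but stood at 1191 TPM in Kmt5b sKO 2. The part of fibre-like cells in this was not tested.

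**Figure D5:**
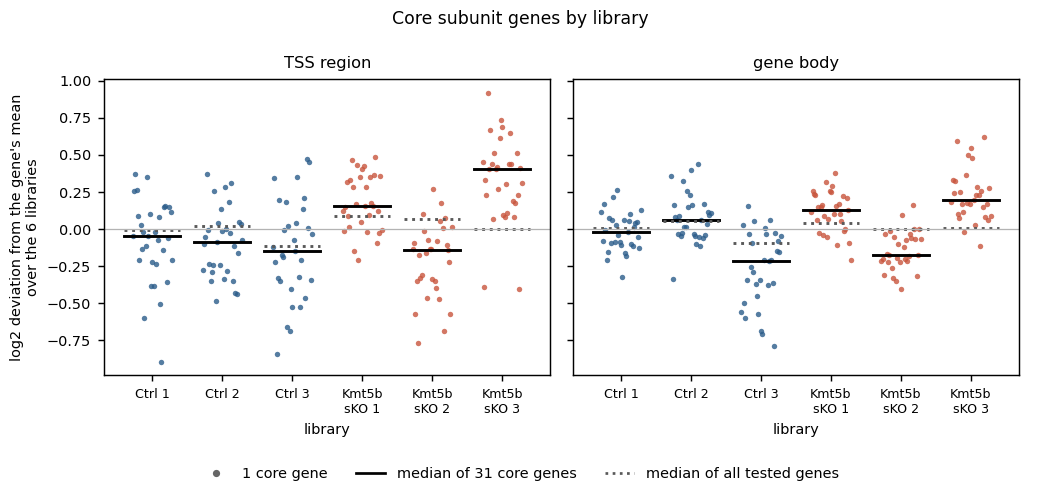
Log2 deviation of each of the 31 core genes from its own mean over the 6 libraries, on values with 0.5 added, in the TSS region and the gene body. Black bars give the core median and dotted bars the median of all tested genes. Kmt5b sKO 3 lies above and Kmt5b sKO 2 and Ctrl 3 lie below 0 in both regions. These shifts go beyond that of all genes, except for Ctrl 3 in the TSS region. There the core median is -0.145 against -0.116 over all tested genes.

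Genes that act with the proteasome were described by the same fits. Of 15 tested factors that bind it or help to build it, such as the ubiquitin receptor Adrm1 and the deubiquitinase Usp14, 0 were called in either region, with a median log2 fold change of -0.07 at the TSS and -0.0087 over the gene body. Of 16 genes around NFE2L1, which include its protease Ddi2, its deglycosylase Ngly1 and the NF-Y subunits, 0 were called, with medians of 0.12 and -0.0026. Of 5 tested genes that supply or activate ubiquitin, 0 were called, and the medians were -0.02 and -0.16. Of 8 ubiquitin ligases of muscle, 1 was called in the TSS region, Trim63 (MuRF1, a ligase of sarcomere proteins and a marker of muscle atrophy), and 0 over the gene body. The log2 fold change was above 0 for 6 of the 8 at the TSS and for 5 over the gene body. Fbxo32, another ligase of this list, had -0.15 at the TSS and 0.19 in the body (limma, adjusted p = 0.911 and 0.846), with overlapping groups. Trim63 had 12.3, 36.2 and 25.0 RPM in Ctrl against 69.2, 61.4 and 96.6 RPM in Kmt5b sKO, without overlap (log2 fold change 1.71 ± 0.32, limma, adjusted p = 0.0289). Under 15 alternatives its log2 fold change was 1.29 to 2.05 and its adjusted p 0.00191 to 0.35, past the threshold under 10 of them, and not so without Ctrl 1, without Kmt5b sKO 3, with the replicate number as a block, without a trend in the variance or without a filter on low values. In its body, 19.3, 31.5 and 17.4 TPM stood against 36.1, 42.4 and 58.1 TPM (1.01 ± 0.26, limma, adjusted p = 0.129). The Kmt5b sKO mean of Trim63 was higher in both regions, as was the summed body level of the fibre markers given above. Among these, Mb, the myoglobin gene, had 30.2, 66.5 and 44.2 TPM in Ctrl against 93.0, 78.1 and 109 TPM in Kmt5b sKO. The body groups of Mb and Acta1 did not overlap, while those of Myh1, Myh2, Myh4, Ckm and Pvalb did. Over all tested genes, 21.4% had body groups without overlap, 12% with Kmt5b sKO above. The part of fibre-like cells in the Trim63 values was not tested.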

How the data were processed

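PRO-seq reads of 6 libraries had been trimmed with Trimmomatic 0.39, aligned to GRCm38 with STAR 2.6.1d, which kept 1 random position for a read that matched several, and deduplicated with Picard 2.18.16, per the methods. The authors counted sense-strand reads in the first 400 nt and in the remainder of isoforms of protein-coding genes and deposited 1 isoform per gene. The TSS values that the authors deposited are TPM in the methods. Over windows of one length TPM is the same as reads scaled to the total counted in TSS regions, and the values that the authors deposited for this region are written here as RPM. The gene body values that the authors deposited are TPM. Many subunit genes have processed pseudogenes, and how reads shared with them were placed cannot be seen from the values.

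The members and the gene lists were chosen with earlier results of these data known. Autosomal genes whose mean reached 0.5 at the TSS and over the body were tested (12451 genes, 46 of 48 members). Psmb11 fell under the filter, and Psmd10 was fitted with X and Y. log2(value + 0.5) was fitted with limma 3.58.1 (trend) in R 4.3.3 on genotype, and the pausing index as a log2 ratio without pseudocount where all values were above 0. Fold changes on this scale understate differences of low genes. Calls needed a Benjamini-Hochberg adjusted p under 0.1 over all tested genes. All members were described, and values per library were given for the 3 largest rises and falls per region among members whose groups did not overlap, for the catalytic and inducible subunits and for Psmd10. Psme1, Psme2, Psmd14, Psmg4, Psmd8 in the gene body and the other genes were chosen after their values were seen. Whole reads were recovered from the steps between values (100% of low values within 0.1 of a whole number) and tested with edgeR 4.0.16 and DESeq2 1.42.0. Promoters came from a RefSeq table, and neighbours from GENCODE vM21 on GRCm38. Scripts were tested on simulated data.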

Additional observations from a re-analysis of the deposited data

How the results depend on the processing

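No setting called a proteasome gene: 0 members were past the threshold in the TSS region, the gene body and for the pausing index under all 48 combinations of region and setting, which varied the pseudocount, the filter, chromosomes X and Y, the trend, the centring of libraries, the threshold, the tool and the libraries. The number called over all genes depended on the setting far more. It was 207 at the TSS and 372 over the gene body, 279 and 748 with edgeR and 295 and 1295 with DESeq2, 0 at the TSS without a filter and 0 there without a trend, 1 (without Ctrl 1) to 408 (without Ctrl 2) and 0 to 836 (without Ctrl 3) on leaving out a library, and 64 and 1 at an adjusted p of 0.05. With the replicate number as a block, 0 genes were called in either region, and the members' medians stayed at 0.15 and 0.05. Neither the titles nor the methods say whether the numbers pair the samples. The deviations of same-numbered libraries correlated at -0.03, -0.13 and -0.16 at the TSS and -0.15, -0.17 and -0.33 over the gene body. With 3 libraries per group these values cannot decide it, and the numbers were not treated as pairs in the main fit.

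On leaving out each library, the members' median log2 fold change ran from 0.043 to 0.29 at the TSS, from 0.0065 to 0.18 over the gene body and from 0.0014 (without Ctrl 2) to 0.20 (without Ctrl 3) for the pausing index. Of the alternative values for 14 members named by the rule, 554 kept direction and side of the threshold and 19 changed direction. In the gene body Psmb2 was -0.0067 with edgeR and -0.012 with DESeq2, and Psmb7 was -0.0097 and -0.016. The other changes came with a library left out: Psmb5 (-0.39 to 0.14) and Psmb8 (-0.53 to 0.038) in the TSS region, Psmb10 (-0.12 to 0.53), Psmb2 (-0.051 to 0.10) and Psmb7 (-0.024 to 0.049) in the gene body, and Psmb10 (-0.25 to 0.46), Psmb6 (-0.19 to 0.34), Psmb8 (-0.077 to 1.28) and Psmd8 (-0.32 to 0.26) for the pausing index. The cause was not tested. Of the tested members, Psmb8, Psmb9, Psme1 and Psme2 had the fewest body reads, 0 to 36 per library.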
